A study of Arabidopsis thaliana with 2 samples.

Results

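The chloroplast genome of Arabidopsis thaliana carries genes for the core proteins of photosynthesis. The deposited table lists 43 of them, chosen by a chloroplast gene identifier and a symbol beginning with psa, psb, pet, atp, ndh or rbcL, out of 101 chloroplast genes and 18615 genes in all. They comprise 15 genes of photosystem II, 5 of photosystem I, 6 of the cytochrome b6f complex, 6 of the ATP synthase, 10 of the NDH complex and rbcL, which encodes the large subunit of Rubisco. The chloroplast gene ndhB is not analysed here.

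RNA was taken from shoots of bts-1 mutant seedlings and of wild-type seedlings of the Col-0 accession, all raised on sucrose-free 1/2 MS (Murashige and Skoog) medium. BTS encodes an E3 ubiquitin ligase that restrains the iron deficiency response, and the title of the series asks how it bears on energy metabolism genes of the organellar genomes. Each genotype has 1 library, so the differences below have no replicate check, no error and no p-value, and they compare 2 libraries. Age, the nature of the bts-1 allele and any pooling of plants are not given in the sources used here.

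In the thylakoid membrane, photosystem II splits water and passes electrons through the cytochrome b6f complex to photosystem I, while the ATP synthase uses the proton gradient this builds. The NDH complex returns electrons from ferredoxin to the chain, and Rubisco fixes carbon dioxide in the stroma. Each complex is a mosaic, with subunits encoded in the chloroplast and subunits encoded in the nucleus and imported. Many chloroplast genes are transcribed together from one promoter and the long transcript is then cut and spliced, mostly under a bacterial-type RNA polymerase that the chloroplast itself encodes.

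Levels are given as deposited, as log2(FPKM + 1), where FPKM counts sequenced fragments per length of transcript and per size of library. A log2 ratio is the bts-1 level minus the Col-0 level, and a gene is called higher or lower where the ratio reaches 1 in size, a 2-fold difference. All 43 genes had a higher level in the bts-1 library. Their median log2 ratio was 1.12, against a median of 0.04 over the 18510 genes that reached an FPKM of 1 in one or both libraries, and they spanned 0.30 to 1.61. Among those 18510 genes, 10135 had a positive ratio and 8357 a negative one. Of the 43 genes, 29 were at least 2-fold higher, against 1.92% of all genes tested, and 0 were at least 2-fold lower, against 3.63%. At 1.5-fold, 39 of the 43 were higher, against 7.53% of all genes tested. Their summed FPKM was 15017 in bts-1 and 7326 in Col-0, a ratio of 2.05, and made up 1.84% of the table in bts-1 and 0.899% in Col-0.

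Read counts are not analysed here, so library depth and the counting error behind each level are unknown. Both columns hold nearly the same set of values, so a ratio states how a gene moved against the rest of the table. The level of the BTS gene itself was 9.57 in bts-1 and 10.84 in Col-0. Of 7 root marker genes 6 were listed, at levels of 1.33 to 10.19 in bts-1 and 0.91 to 10.06 in Col-0. The top value was that of the beta-glucosidase PYK10. The next was that of SCR, at 4.43 in bts-1 and 4.99 in Col-0. The summed FPKM of the 6, most of it from PYK10, was 1211 in bts-1 and 1115 in Col-0. Ratios went both ways, at 0.41 for CASP1, 0.56 for PHT1;1 and 0.13 for PYK10, and at -0.03 for SHR, -0.57 for SCR and -0.11 for PIP2;4. The part of root tissue in the results was not tested. The 6 chloroplast ribosomal RNA loci were listed at only 1.33 to 4.47 in bts-1 and 0 to 3.57 in Col-0, below every photosynthesis gene in the same library; reads of such repeated loci cannot be assigned with certainty, and the sources used here do not say how ribosomal RNA was removed or messenger RNA selected. In bulk tissue, more chloroplasts or cells in bts-1 and more RNA in each cannot be told apart. A difference between the 2 libraries in how RNA was selected cannot be told apart from either.

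**Figure D1:**
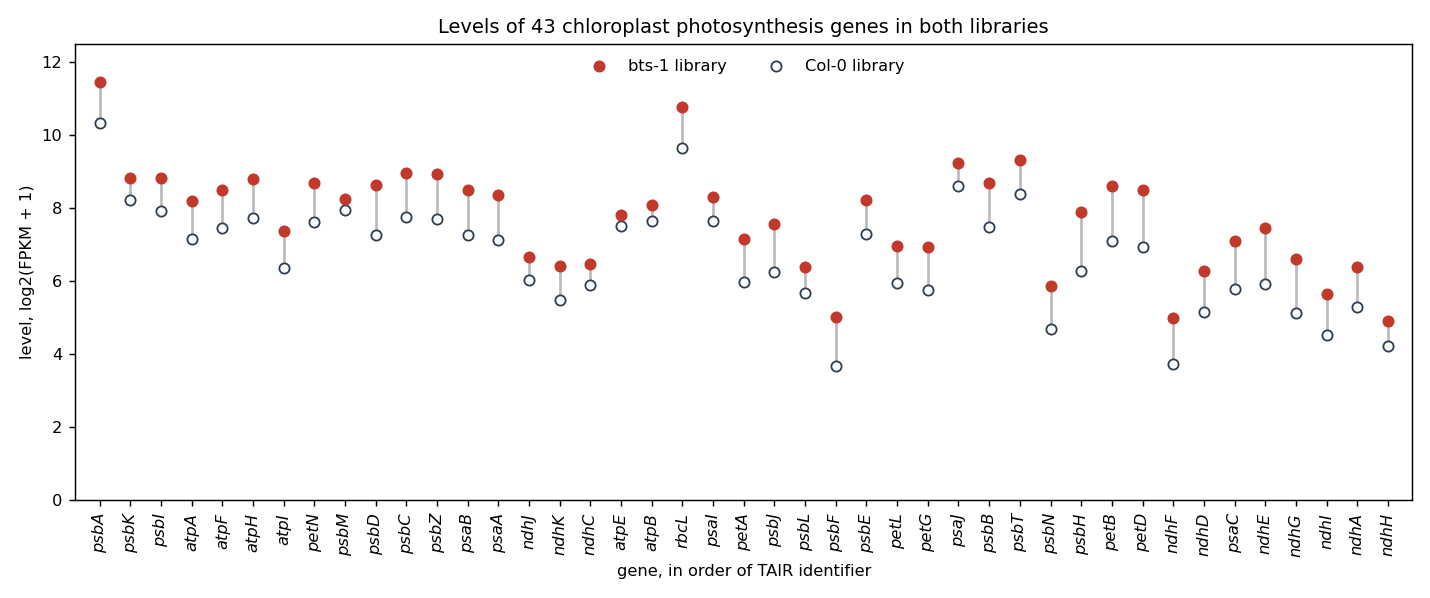
Level of each of the 43 chloroplast photosynthesis genes, as log2(FPKM + 1) on the vertical axis, in the bts-1 library (filled) and the Col-0 library (open), 1 library each, with genes in order of their identifier along the horizontal axis. The filled point lies above the open one for all 43 genes, and psbA and rbcL stand highest in both libraries.

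The order of the genes by level was much alike in both libraries (Spearman's rho 0.94 across the 43 genes, which share both libraries and their normalization). psbA, which encodes the D1 reaction centre protein of photosystem II that is broken by light and constantly replaced, was the highest, at 11.46 in bts-1 and 10.34 in Col-0. It alone gave 18.8% of the summed FPKM of the 43 genes in bts-1 and 17.6% in Col-0. rbcL was next at 10.78 in bts-1 and 9.66 in Col-0, and both genes held the same place in each library. Their log2 ratios were 1.13 for psbA and 1.12 for rbcL, close to the median of the 43. At the low end, ndhH was lowest in bts-1 at 4.91 and psbF lowest in Col-0 at 3.69. With 1 library a genotype, it cannot be said which neighbours in this order differ beyond their error. The gene that lost most places was psbM, a small photosystem II subunit, which stood 19th in bts-1 and 6th in Col-0. The level of psbA is the reason its upstream sequence is shown here, from RefSeq's TAIR10.1 assembly on the minus strand, from 115 to 86 bases before the annotated start, with the bacterial promoter hexamer TTGACA in capitals.
psbA upstream: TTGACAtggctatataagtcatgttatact
Across the 250 bases before the annotated start, TTGACA lies on the strand of the gene for 5 of the 43 genes (11.6%) and for 8 of 77 protein-coding chloroplast genes (10.4%), and on either strand for 6 of 43 (14.0%) and 11 of 77 (14.3%). The second bacterial promoter hexamer, TATAAT, lies on the strand of the gene for 9 of 43 (20.9%) and 18 of 77 (23.4%), and on either strand for 20 of 43 (46.5%) and 33 of 77 (42.9%). The 5 genes with TTGACA on their own strand are psbA, atpF, petD, ndhF and ndhD. The window of rbcL, next to psbA in level, holds neither hexamer on either strand. Such matches describe the letters of these windows, which for a gene inside a transcription unit may hold no promoter.

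Photosystem II genes had a median log2 ratio of 1.19, and 9 of 15 were at least 2-fold higher in bts-1. The reaction centre proteins are D1 and its partner D2, from psbD, which stood at 8.65 in bts-1 and 7.26 in Col-0, a ratio of 1.39. The core antenna proteins CP43 and CP47, which hold chlorophyll beside that centre, come from psbC, at 8.98 in bts-1 and 7.76 in Col-0, and psbB, at 8.70 in bts-1 and 7.50 in Col-0. The 4 genes for the large core proteins thus had ratios of 1.13 to 1.39, all past 2-fold. Cytochrome b559, a heme protein of the core, is built from psbE, at 8.24 in bts-1 and 7.31 in Col-0, and psbF, at 5.02 in bts-1 and 3.69 in Col-0. Their listed levels differed widely although both encode one small subunit of the same protein. psbF has 120 bases of exon, against 252 in psbE, and levels per length are uncertain for genes under 200 bases. The highest ratio of the 43 genes was 1.61, for psbH, a phosphoprotein subunit at 7.89 in bts-1 and 6.28 in Col-0. Among the other small subunits, psbJ had a ratio of 1.32, psbZ of 1.23 and psbN, which in tobacco encodes a factor for assembly of the complex, of 1.19. The 6 members short of 2-fold were all small subunits, with ratios of 0.93 for psbE, 0.92 for psbT, 0.90 for psbI, 0.69 for psbL, 0.61 for psbK and 0.31 for psbM.

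Photosystem I genes split into a high and a low group. psaA and psaB encode the pair of proteins that carry the reaction centre chlorophyll; psaA stood at 8.35 in bts-1 and 7.12 in Col-0, and psaB at 8.51 in bts-1 and 7.26 in Col-0. psaC, whose protein holds the terminal iron-sulfur clusters, stood at 7.10 in bts-1 and 5.80 in Col-0. These 3 genes had ratios of 1.23, 1.24 and 1.31 in that order. The low group was psaI, with 114 bases of exon, and psaJ, with 135, and levels of genes this short are uncertain. psaI stood at 8.30 in bts-1 and 7.65 in Col-0, a ratio of 0.64. psaJ stood at 9.24 in bts-1 and 8.62 in Col-0, a ratio of 0.62. Neither had the lowest level of the complex, which was that of psaC in both libraries.

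All 6 cytochrome b6f genes were at least 2-fold higher, with a median log2 ratio of 1.17; petL, the closest to the limit, fell short of it at 0.98 with ratios centred on the nuclear median and at 0.97 with a pseudocount of 5. Cytochrome b6 (petB) stood at 8.61 in bts-1 and 7.12 in Col-0, and subunit IV (petD) at 8.49 in bts-1 and 6.93 in Col-0. Their ratios, 1.49 and 1.56, were the highest of the complex, and petA, the cytochrome f gene, followed at 7.16 in bts-1 and 5.99 in Col-0, a ratio of 1.18. The small subunit genes petG, petN and petL had ratios of 1.17, 1.08 and 1.02. The summed FPKM of the complex was 1552 in bts-1 and 632 in Col-0, a ratio of 2.46, against 1.78 for the ATP synthase, the lowest of the 6 groups. petB and petD are 2 of the 4 listed genes with an intron, besides atpF and ndhA, and these 4 had ratios of 1.06 to 1.56. Both begin with a first exon of a few bases, shown in capitals at the head of each gene on the plus strand of RefSeq's TAIR10.1 assembly, so that nearly all of their exon sequence lies after the intron.
petB: ATGAGTgtgtgacttgttagaattgaccct
petD: ATGGGAGTgtgtgacttgaactattgatcg

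The ATP synthase genes had a median log2 ratio of 1.02, with 4 of 6 at least 2-fold higher, and they divided by place in the genome. The genes of the membrane part and of the alpha subunit, atpI, atpH, atpF and atpA, had ratios of 1.01, 1.08, 1.06 and 1.04. Of these, atpI lost its 2-fold call at 0.97 both with ratios centred on the nuclear median and with a pseudocount of 5. The most abundant of these was atpH, for the ring subunit c, at 8.81 in bts-1 and 7.73 in Col-0. The beta subunit gene atpB, which carries the catalytic sites, stood at 8.09 in bts-1 and 7.66 in Col-0, and the epsilon subunit gene atpE at 7.82 in bts-1 and 7.51 in Col-0. With ratios of 0.43 and 0.30 they were among the 3 lowest of the 43, together with psbM. In bts-1 the alpha gene was listed above the beta gene, at 8.20 against 8.09, and in Col-0 below it, at 7.16 against 7.66. The coding sequences of atpB and atpE overlap by 4 bases on the minus strand, where the start codon of atpE and the stop codon of atpB share letters. Those bases are in capitals below, in the junction read from RefSeq's TAIR10.1 assembly.
atpB/atpE: taaattgaagaaATGAccttaaatcttt

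NDH genes were at least 2-fold higher in 6 of 10 cases, with a median log2 ratio of 1.11, and had the lowest levels of the 6 groups, with medians of 6.41 in bts-1 and 5.23 in Col-0. The membrane subunit genes ndhE and ndhG had the highest ratios. ndhE stood at 7.47 in bts-1 and 5.93 in Col-0, and ndhG at 6.60 in bts-1 and 5.12 in Col-0, ratios of 1.54 and 1.48. Other genes of the membrane arm followed, with 1.25 for ndhF, 1.12 for ndhA and 1.10 for ndhD, but 0.58 for ndhC. Of the genes for the arm that faces the stroma, ndhI was at 1.12, or just short of 2-fold with a pseudocount of 5, while ndhK, ndhH and ndhJ were at 0.93, 0.68 and 0.63, short of 2-fold. ndhD is the single gene of the 43 whose annotated first codon is ACG in the genome, where 42 have ATG. The ACG is in capitals below (minus strand, RefSeq's TAIR10.1 assembly). In Arabidopsis this ACG is made into a start codon by RNA editing, which the deposited levels do not measure.
ndhD: ACGaatgattttccttggttaacaataatt

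**Figure D2:**
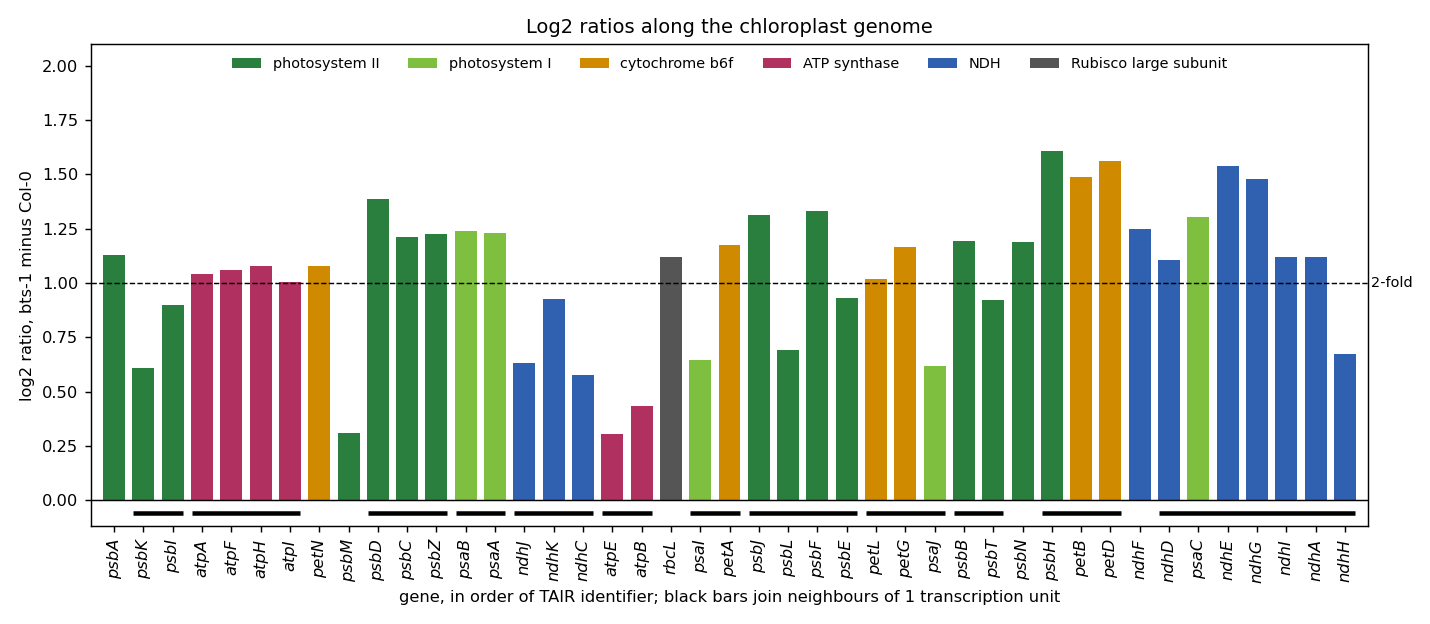
Log2 ratio of bts-1 over Col-0 for the 43 genes in order of identifier, as bars from 0 coloured by complex; the dashed line marks 2-fold, and black bars below join neighbours assigned to one transcription unit, with the psbB unit in 2 pieces around psbN. Bars range from 0.30 (atpE) to 1.61 (psbH), and the low bars include the neighbours atpE and atpB and the neighbours ndhJ, ndhK and ndhC.

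Transcription units were assigned from textbook knowledge of plastid genomes, with every gene of a unit on one strand in RefSeq's TAIR10.1 annotation, and the transcripts themselves were not measured. The 43 genes fell into 17 units, of which 11 held 2 or more of them, 37 genes in all. Within these 11 units the ratios spanned a median of 0.35, from 0.01 in the psaA unit to 0.86 in the ndhH unit. All 43 genes spanned 1.30, which no unit can exceed. A span also widens with the number of genes, so these spans do not show that genes of a unit move together. Members next to each other by identifier differed by a median of 0.20 in ratio for 25 pairs inside a unit and by 0.31 for 17 pairs across units. In 3 of the 11 units every member was at least 2-fold higher, in 3 none was, and in 5 some were. Neighbours in a unit can share reads at their junctions, and they are not separate observations.

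The units with every member past 2-fold were those of psbD, psaA and atpI, the last only without the centring or the pseudocount of 5 under which atpI itself lost its call. The psbD unit had ratios of 1.39 for psbD, 1.21 for psbC and 1.23 for psbZ, a small subunit near the antenna. The psaA unit ended with the ribosomal protein gene rps14, at 7.82 in bts-1 and 6.54 in Col-0, whose ratio of 1.28 lay beside those of psaA and psaB. Ahead of atpI the ribosomal protein gene rps2 had a ratio of 0.84, below the narrow band of the 4 ATP synthase genes after it. In the psbD unit, the psbD and psbC coding sequences, as annotated, share 53 bases on the plus strand, so reads there cannot be assigned with certainty. The shared stretch is shown in capitals from RefSeq's TAIR10.1 assembly.
psbD/psbC: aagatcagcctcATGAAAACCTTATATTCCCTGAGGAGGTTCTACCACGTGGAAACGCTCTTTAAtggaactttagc

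The units with no member past 2-fold were those of psbK, ndhC and atpB. psbK stood at 8.83 in bts-1 and 8.22 in Col-0, and psbI at 8.82 in bts-1 and 7.93 in Col-0. In the ndhC unit, ndhC stood at 6.48 in bts-1 and 5.90 in Col-0, ndhK at 6.42 in bts-1 and 5.50 in Col-0, and ndhJ at 6.67 in bts-1 and 6.04 in Col-0. These 3 NDH genes had ratios of 0.58 to 0.93, while in the ndhH unit 5 of the 6 NDH genes were past 2-fold. The NDH ratios of these units overlapped, as ndhH at 0.68 lay inside the range of the ndhC unit. For the ATP synthase the ranges lay apart, 1.01 to 1.08 in the atpI unit and 0.30 to 0.43 in the atpB unit. With 1 library a genotype, differences between units were not tested.

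Ratios changed along some units. In the psbB unit, psbB had a ratio of 1.19 and psbT of 0.92, and the 3 genes after them, psbH, petB and petD, had 1.61, 1.49 and 1.56, which include the 2 highest of the 43. psbT was the most abundant of this unit, at 9.31 in bts-1 and 8.39 in Col-0. psbN lies between psbT and psbH on the other strand, at the lower levels of 5.88 in bts-1 and 4.69 in Col-0; the library kit keeps the strand, per the labels, but how strand was used in counting is not given. In the ndhH unit the first gene, the ribosomal protein gene rps15, stood at 4.86 in bts-1 and 4.94 in Col-0, a ratio of -0.07. The genes after it, in the direction of transcription, had ratios of 0.68 for ndhH, 1.12 for ndhA, 1.12 for ndhI, 1.48 for ndhG and 1.54 for ndhE, and then 1.31 for psaC and 1.10 for ndhD. This unit had the widest span of ratios and also the most members, 7. psaC, its photosystem I member, lay within the range of its NDH neighbours.

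**Figure D3:**
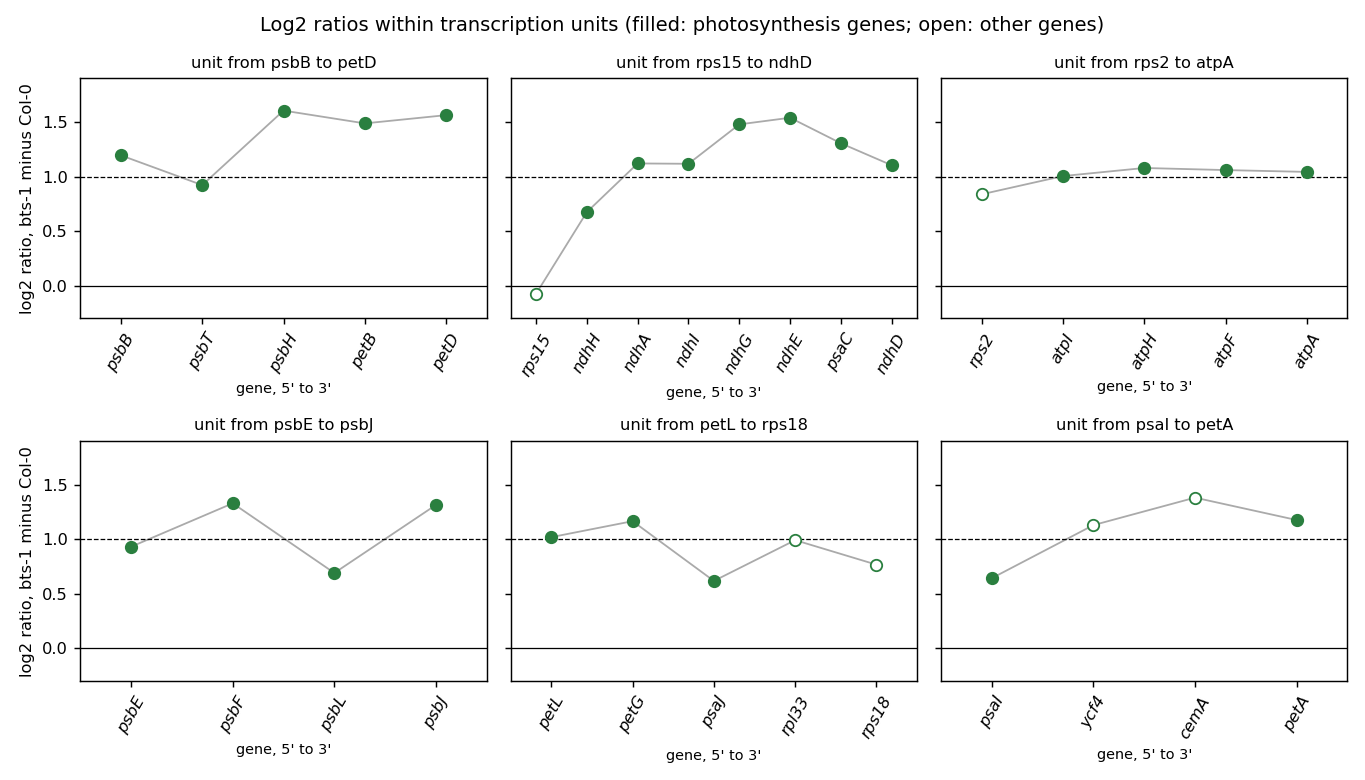
Log2 ratio of bts-1 over Col-0 for the genes of 6 transcription units, each in the direction of transcription, with photosynthesis genes filled and other genes open; the dashed line marks 2-fold and the solid line 0. Ratios run from -0.07 at rps15 to 1.54 at ndhE in the unit that ends with ndhD, and stay between 0.84 and 1.08 in the unit from rps2 to atpA.

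The remaining units mixed higher and lower ratios. In the psbE unit psbF and psbJ had 1.33 and 1.32, and psbE and psbL 0.93 and 0.69, with levels from 5.02 to 8.24 in bts-1 and from 3.69 to 7.31 in Col-0. In the psaI unit as assigned here, the first gene, psaI, had 0.64. After it, ycf4, which encodes an assembly factor of photosystem I, had 1.13, cemA, which encodes an envelope protein, 1.38 and petA 1.18. accD, the gene before psaI by identifier, was not assigned to this unit and had 1.05. In the petL unit petL and petG had 1.02 and 1.17 and psaJ 0.62, followed by 0.99 for rpl33 and 0.77 for rps18. Single genes were psbA, rbcL, petN, ndhF and psbN, past 2-fold, and psbM, at 8.27 in bts-1 and 7.96 in Col-0.

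The 14 genes under 200 bases of exon had a median log2 ratio of 0.97, with 7 at least 2-fold higher, and the 29 longer genes a median of 1.12, with 22. The range of the shorter genes, 0.31 to 1.33, lay within that of the longer ones, 0.30 to 1.61, and across the 43 genes Spearman's rho was 0.23 between ratio and exon length and 0.21 between ratio and GC content, in the same pair of libraries. Against level, rho was -0.02 for the bts-1 level and -0.31 for the Col-0 level, which the ratio itself subtracts. Genes this short can be shorter than a sequenced fragment, so their levels per length are uncertain. Copies elsewhere took up little of the exons: 36 of the 43 genes had no match at 98% identity or more in the nuclear and mitochondrial sequences of TAIR10.1, and the largest share was 17.2%, in atpI, followed by 14.0% in petB and 13.3% in rbcL.

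Nuclear genes for subunits of the same complexes were not higher to this extent. None of 51 nuclear subunit genes was at least 2-fold higher or lower, against 1.92% higher and 3.63% lower of all genes tested. At such shares few of 51 genes would be called, so the absence of calls does not set these genes apart. Their median log2 ratio was -0.03, with a span of -0.70 to 0.50. The summed FPKM of the 51 was 59580 in bts-1 and 59297 in Col-0. Of the 43 chloroplast genes, 40 had a ratio above the highest of these nuclear genes, and the 3 that did not were psbM, atpB and atpE. For reading the signs below, 10007 of the 18370 nuclear genes tested had a positive ratio and 8345 a negative one. Photosystem I had 12 of 12 nuclear genes with a positive ratio, at a median of 0.20, from 0.03 for PSAD-1, a stromal subunit that docks ferredoxin, to 0.43 for PSAN, a lumenal subunit. Photosystem II had a median of 0.08, from -0.14 for PSBR to 0.50 for PSBQ-2, an extrinsic protein of the water-splitting side. For cytochrome b6f, PETC, the Rieske iron-sulfur protein, was at 0.08 and AT2G26500 at 0.26. Nuclear ATP synthase genes had a median of 0.01, from -0.30 for AT4G32260 to 0.17 for ATPC2, a gamma subunit gene. Nuclear NDH genes were negative in 16 of 17 cases, with a median of -0.20, from -0.70 for AT4G09350 to 0.08 for NDF6, set against a median of 1.11 for the chloroplast NDH genes. The 4 Rubisco small subunit genes were all negative, from -0.36 for AT5G38430 to -0.12 for AT5G38410, beside 1.12 for rbcL; these copies are much alike and can share reads.

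**Figure D4:**
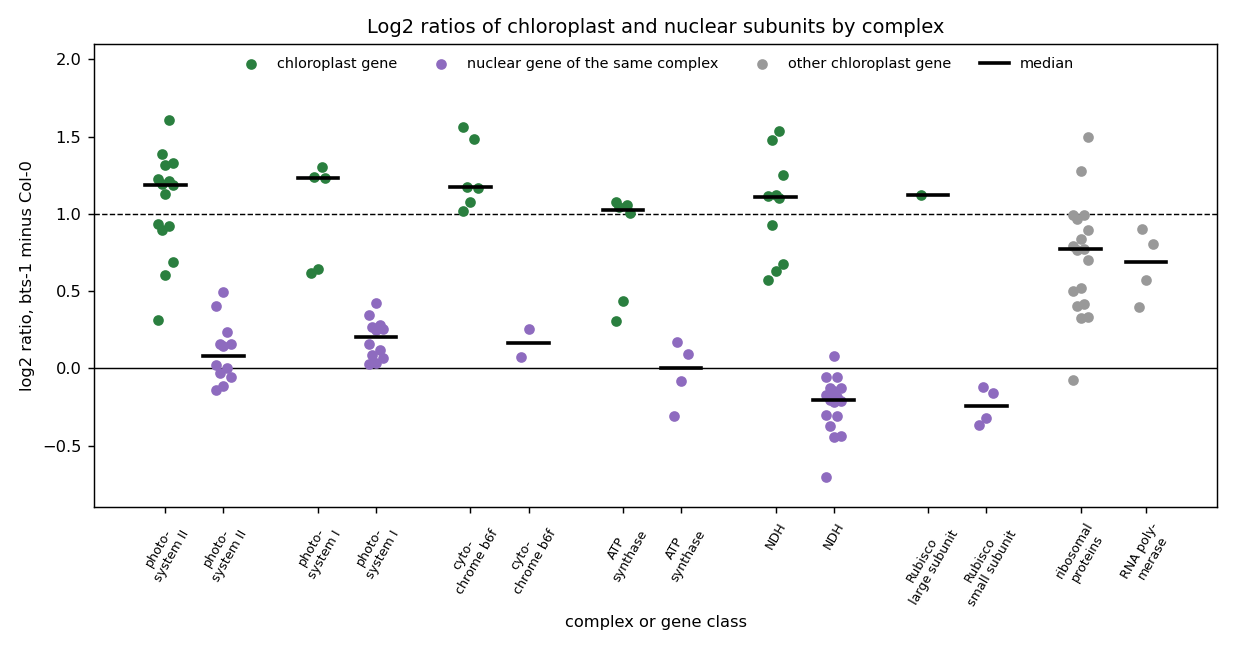
Log2 ratio of bts-1 over Col-0 for each gene, by complex, with chloroplast genes to the left of the nuclear genes of the same complex, and with the chloroplast ribosomal protein and RNA polymerase genes at the right; horizontal bars are medians. The medians of the chloroplast photosynthesis genes lie between 1.02 and 1.23, those of the nuclear genes between -0.24 and 0.20, and those of the chloroplast ribosomal protein and RNA polymerase genes at 0.77 and 0.69.

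The other chloroplast genes differed by class. The 8 protein-coding genes outside photosynthesis subunits, ribosome and RNA polymerase had a median log2 ratio of 1.23, with 7 at least 2-fold higher, so their median was above the 1.12 of the photosynthesis genes. They include matK, for an intron maturase, at 1.40, ycf3, for a photosystem I assembly factor, at 1.39, and cemA and ycf4, named above, and the one short of 2-fold was ycf1 at 0.21. The 18 ribosomal protein genes had a median of 0.77, with 2 at least 2-fold higher, and the 4 genes of the chloroplast RNA polymerase a median of 0.69, with 0. These 30 protein-coding genes together stood at a median of 0.82, with 9 at least 2-fold higher. The 22 transfer RNA genes had a median of 0.96, with 10 past 2-fold upward and 3 past 2-fold downward; those 3 sat at the floor of the bts-1 column, and 3 of the 10 at the floor of the Col-0 column. With 1 library a genotype, the difference between these classes and the photosynthesis genes has no test.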

How the data were processed

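The table was deposited by the authors with 1 column of values for bts-1 and 1 for Col-0, named normalized FPKM. The deposited values are on a log2 scale and were read as log2(FPKM + 1): the lowest Col-0 value is 0 and the highest 15.17. Sorted, both columns agree within 0.001 at 99.1% of ranks, as after quantile normalization, a step no label records; it removes any overall difference between the libraries. Per the submitters' processing notes, the tools included HTSeq 0.9.1, TopHat2 2.1.0, Bowtie, cutadapt 1.12 and CASAVA 1.8.2 and the build was TAIR10, without roles or order. Depth is unknown. 2 of 18617 rows, without a symbol, were left out; they hold 4.34% of the summed FPKM in bts-1 and 4.33% in Col-0.

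The log2 ratio is bts-1 minus Col-0, so the pseudocount of 1 is already inside it, and genes that reached an FPKM of 1 in one or both libraries were tested; all 43 members passed. There are no replicates, so no test was run. The arithmetic was checked on the Col-0 values with known shifts added to some genes and no noise. Recovery of these shifts checks the code only. Every member is named, with genes that share its transcription unit and the highest and lowest nuclear subunit gene of each list. Members, lists and units were chosen with earlier results of these data known. The reference genome is TAIR10.1, not the build of the processing notes, so no coordinates are given; it served for exon lengths, strand, sequence and BLAST+ 2.17.0 matches, read by gene symbol, all 43 of which were found. Alternatives were other pseudocounts, filters, centring, scaling, fold limits and gene subsets.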

Additional observations from a re-analysis of the deposited data

How the results depend on the processing

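No paired analysis was possible because each genotype has 1 library. With no replicate spread to go by, a median was taken as moved when it differed by 0.1 or more on the log2 scale and a count when it differed by more than 1.5 times. The median log2 ratio of the 43 genes ran from 1.05 to 1.14 over pseudocounts of 0.1 and 5, no filter, an FPKM of at least 5, equal nuclear sums, centring on the nuclear median, the mean, and leaving out the 14 genes under 200 bases. All ratios stayed positive under these settings, though a pseudocount or a filter cannot change the sign of a ratio. No member has a second copy in the chloroplast sequence, so leaving out repeated genes changed nothing. Both filter settings kept all 43 members and could change nothing either. Of 76 comparisons 74 stayed within those limits, a total that includes these settings, which could not move a value. It also includes the count at 1.5-fold, 39 in place of 29, which the wide limit for counts let pass. The count at least 2-fold higher was 26 with a pseudocount of 5, where petL, atpI and ndhI lost the call, and 27 with centring, where petL and atpI did. At 2.5-fold the count of higher members was 7, against 0.686% of all genes tested, in place of 29, and without genes under 200 bases the cytochrome b6f median was 1.49, because the 3 short genes petG, petL and petN drop out. No alternative can stand in for the missing replicates and depth.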
